A study of Zea mays with 14 samples.

Results

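The trimethylation of lysine 4 (H3K4me3) and the acetylation of lysine 9 (H3K9ac) of histone H3 were compared within the root of maize (Zea mays) seedlings. The comparison used the 2 chromatin immunoprecipitation libraries whose titles name these marks and root, out of 14 libraries of the series. The whole series covers 7 assays in shoot and root, with 1 library for each. All plants were of the inbred line B73, were 14 days old when they were separated into shoots and roots, and had grown in a soil mixture, with no treatment or mutation named. Root tissue of several seedlings was pooled, and the precipitated DNA of parallel reactions was combined before library construction, so each library is an average over whole roots and over plants. No input library was used here. With 1 library for each mark there were no replicates, no test was possible, and every interval below covers counting error at most. A lower signal from fewer cells with a mark and from less of the mark in each cell cannot be told apart in such libraries. The organ was not checked against marker genes, because none of the 186790 gene identifiers matched the name table used here.

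H3K4me3 is written by methyltransferases of the Trithorax type and is found around the start of transcribed genes, where proteins with reader domains bind it. H3K9ac is written by acetyltransferases such as GCN5, removed by histone deacetylases, and found in the same place. Methylation of lysine 4 is removed by demethylases, and acetylation generally turns over faster than methylation. Other marks used below are H3K36me3, which is laid down along the body of transcribed genes, H3K27me3, the mark of Polycomb repression, and DNA methylation read from fragments cut by the enzyme McrBC.

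The 2 kinds of deposited file hold different things. A peak list gives the clone, start and end of each enriched region, without a score. Clones are the sequenced pieces of the maize genome on which the peaks were placed, and their place on the chromosomes was not used here. A gene table gives, for each gene model, the length in bases that carries a mark, and the depth, which is the summed base coverage over that length. The depth carries 1 scaling factor for each library, 0.840 for H3K4me3 and 0.722 for H3K9ac in root. Divided by that factor and by the read length of 35 bases, the depth gives read equivalents, the number of reads to which the coverage corresponds. Summed over gene models, which overlap, the root libraries held 1941029 read equivalents of H3K4me3 and 853208 of H3K9ac. The shoot libraries held 4037311 and 5064621, so that H3K9ac had less coverage than H3K4me3 in root and more in shoot. This coverage is summed over marked lengths only, so it also rises with the number and length of marked regions. Its part in the differences described below was not tested.

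H3K4me3 occupied more places than H3K9ac in root, and most H3K9ac lay on H3K4me3. The list held 39410 H3K4me3 peaks on 13147 clones and 26028 H3K9ac peaks on 11335 clones. Both marks occurred on 10899 clones, H3K4me3 without H3K9ac on 2248 and H3K9ac without H3K4me3 on 436. An overlap was counted from 1 bp. By that rule 20168 H3K9ac peaks (77.5%, 95% Wilson interval 77.0 to 78.0%) lay on H3K4me3 and 5860 did not, while 20235 H3K4me3 peaks (51.3%, 50.9 to 51.8%) lay on H3K9ac and 19175 did not. Measured in bases, the marks shared 11.3 Mb. This was 69.6% of the bases under H3K9ac peaks and 42.8% of those under H3K4me3 peaks. The corresponding shares in shoot were 60.5% and 81.0%, so that the mark of larger extent was H3K4me3 in root and H3K9ac in shoot.

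Overlap was rarely marginal. Of the 21152 overlapping combinations of an H3K4me3 with an H3K9ac peak, 369 (1.74%) shared 50 bp or less. Just outside the limit, 200 H3K4me3 peaks and 171 H3K9ac peaks had a gap of at most 50 bp to the nearest peak of the other mark. Most peaks without a partner lay far from one. A peak of the other mark was within 1000 bp of 5.44% of H3K4me3 peaks without a partner and of 13.98% of such H3K9ac peaks. Among those with any peak of the other mark on their clone, the median gap was 21906 bp for H3K4me3 and 11159 bp for H3K9ac. A further 20.0% of unpartnered H3K4me3 peaks (19.5 to 20.6%) and 9.62% of unpartnered H3K9ac peaks (8.90 to 10.4%) lay on clones without the other mark.

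Overlapping peaks formed 19271 groups, and 17681 of these (91.7%) held 1 peak of each mark. In 669 groups an H3K4me3 peak overlapped several H3K9ac peaks, which were 2 in 656 cases. In these the median width was 835 bp for the H3K4me3 peak and 436 bp for the H3K9ac peaks. In 763 groups an H3K9ac peak of 713 bp (median) overlapped several H3K4me3 peaks of 485 bp (median). Neighbouring peaks of a single list overlapped each other by up to 100 bp in 2.96% of H3K4me3 and by up to 92 bp in 3.25% of H3K9ac peaks, so a continuous region can be listed as several. Merging such peaks changed the shares of overlapping peaks by less than their counting interval.

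Within the 17681 one-to-one pairs, H3K9ac was slightly narrower than H3K4me3 and nearly centred on it. The median width was 713 bp for H3K4me3 (quartiles 512 and 956 bp) and 631 bp for H3K9ac (465 and 834 bp). The median width ratio of H3K9ac over H3K4me3 was 0.914, with a 95% order-statistic interval of -0.14 to -0.12 on the log2 scale and quartiles of the ratio of 0.690 and 1.16. H3K9ac was the narrower peak in 60.1% of pairs (59.4 to 60.9%). The widths of 87.8% of pairs lay within 2-fold of each other. Where they did not, H3K4me3 was the wider peak in 9.34% of all pairs and H3K9ac in 2.88%. The distance between the centres had a median of 86.5 bp (quartiles 38.5 and 168 bp). A median of 90.8% of the H3K9ac peak and 81.2% of the H3K4me3 peak was shared. Across pairs, Spearman's rho between the widths was 0.546, a description over peaks that come from the same 2 libraries.

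Full nesting was found in about as many pairs as staggered edges. H3K9ac lay inside H3K4me3 in 5361 pairs (30.3%, 29.6 to 31.0%), H3K4me3 lay inside H3K9ac in 3407 pairs (19.3%, 18.7 to 19.9%), and 8913 pairs (50.4%, 49.7 to 51.1%) were staggered, each mark passing the other at an edge. Both edges were equal in 0 of 17681 pairs, which allows a share of up to 0.0170% when a count of 0 is read as at most 3. Where H3K9ac was nested, the median widths were 547 bp inside 875 bp. Where H3K4me3 was nested, they were 548 bp inside 781 bp. Staggered pairs had similar widths, 686 bp for H3K4me3 and 624 bp for H3K9ac, and centres 128 bp apart.

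Single pairs close to these medians show the geometry. They were taken, after the data were seen, as the pair of each kind whose widths were nearest to the medians. In the pair with H3K9ac inside, an H3K9ac peak of 546 bp began 3 bp after the start of an H3K4me3 peak of 872 bp and ended 323 bp before its end. At this locus the shoot lists held H3K4me3 over 1092 bp and H3K9ac over 1390 bp. In the pair with H3K4me3 inside, an H3K9ac peak of 781 bp passed an H3K4me3 peak of 544 bp by 200 bp on the left and 37 bp on the right, and the shoot widths were 582 bp for H3K4me3 and 1793 bp for H3K9ac. In the staggered pair, H3K9ac (623 bp) began 39 bp before H3K4me3 (687 bp) and ended 103 bp before it. A root H3K36me3 peak of 500 bp lay over this last pair. In all 3 examples the H3K9ac peak was the wider one in shoot.

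Wide peaks had partners more often than narrow ones, and the width of a peak went with which mark was nested. Among H3K4me3 peaks, divided by width into 5 classes of nearly equal number, 30.1% of the narrowest class (up to 376 bp, 29.1 to 31.1%) and 68.0% of the widest (from 920 bp, 67.0 to 69.0%) overlapped H3K9ac. Among H3K9ac peaks, the share was 54.9% in the narrowest class (up to 370 bp) and 93.4% in the widest (from 832 bp). In pairs whose H3K4me3 peak was in the narrowest class, H3K9ac was inside in 8.02% and H3K4me3 inside in 41.4%. In pairs of the widest class, H3K9ac was inside in 48.4% and H3K4me3 inside in 8.39%. The median width of the paired H3K9ac peak was 424 bp in the narrowest and 868 bp in the widest class of H3K4me3. A wide peak meets and contains others more easily, so that a part of this order is built into the classes. The median width over all peaks was 692 bp for H3K4me3 with and 507 bp without H3K9ac, and 614 bp for H3K9ac with and 411 bp without H3K4me3.

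**Figure D1:**
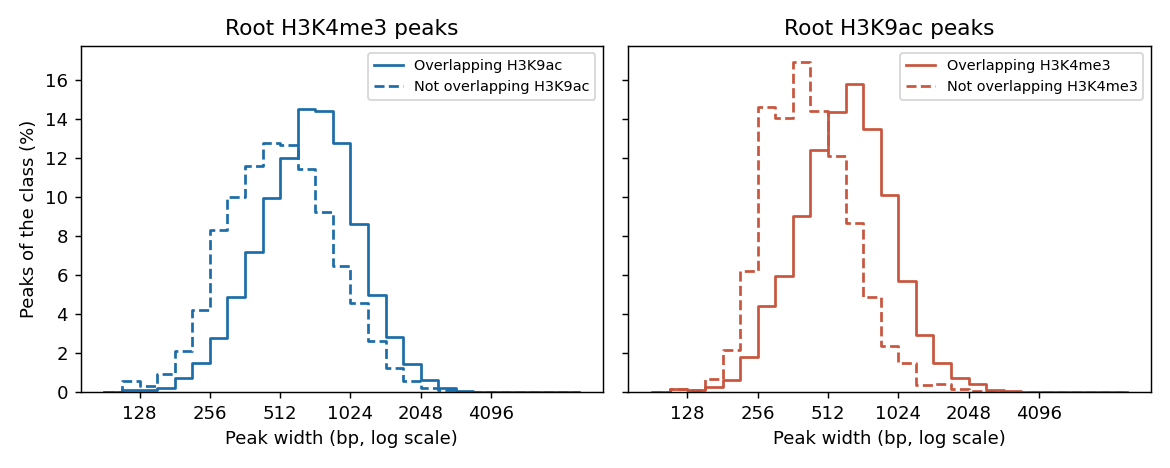
Widths of root H3K4me3 peaks (left) and H3K9ac peaks (right) on a log scale, as the percentage of peaks in each width bin. Solid lines show peaks that overlap the other mark and dashed lines those that do not, whose medians are 507 against 692 bp for H3K4me3 and 411 against 614 bp for H3K9ac.

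At the same loci the median relation of widths was the opposite in shoot. Of the root pairs, 16330 (92.4%) coincided with a single one-to-one pair of the shoot lists. At these loci the median width ratio of H3K9ac over H3K4me3 was 0.909 in root (0.903 to 0.915) and 1.28 in shoot (1.276 to 1.288). H3K9ac was narrower in root and wider in shoot at 52.2% of loci, wider in both organs at 35.2%, narrower in both at 8.48%, and wider in root and narrower in shoot at 3.84%. Both marks were wider in shoot, by a median factor of 1.37 for H3K4me3 and 2.05 for H3K9ac. Where H3K9ac was inside H3K4me3 in root, H3K4me3 was inside H3K9ac in shoot at 62.4% of loci, and this share was 74.2% where it already was so in root. Across loci, rho between the log2 width ratios of root and shoot was 0.170. Over all shoot pairs, H3K4me3 lay inside H3K9ac in 66.0% and the reverse held in 3.63%. Each organ had 1 library for each mark and the difference between organs was not tested.

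**Figure D2:**
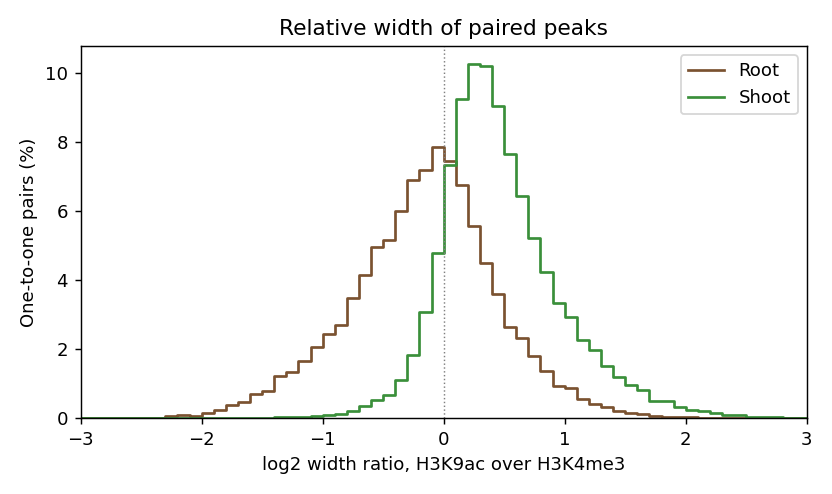
Distribution of the log2 ratio of H3K9ac over H3K4me3 peak width in one-to-one pairs of root and shoot, as the percentage of pairs in bins along the ratio. The dotted line marks equal widths, and the median is -0.13 in root and 0.40 in shoot.

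H3K36me3 gave a readout of position that the pairing did not use. Of the root pairs, 10851 overlapped a single root H3K36me3 peak and had centres apart from it. Taken over all of them, H3K9ac was not displaced toward or away from the H3K36me3 centre, with a median shift of 0 bp (-3 to 3 bp). The median edge differences over all of them were also alike, -24 bp on the side of H3K36me3 and -23 bp on the other side. In the 1496 pairs whose middle was at least 250 bp from that centre, the H3K9ac centre lay 22 bp farther from it than the H3K4me3 centre (median -22 bp, -30 to -11.5 bp). In the 358 pairs at least 500 bp away the median was -36 bp (-55 to -15 bp). In these 358 pairs H3K9ac fell short of the H3K4me3 edge by a median of 77.5 bp on the side of H3K36me3 (a difference of -77.5 bp, -102 to -34 bp) and by 4 bp on the other side (-4 bp, -22 to 7 bp). The quartiles of the centre shift, -164 and 85.9 bp, were wide against these medians. Pairs were kept only where they overlapped H3K36me3, and the part of this choice in the shift of distant pairs was not tested. This orientation was added after the data were seen.

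Peaks with both marks carried H3K36me3 more often than peaks with 1 of them. H3K36me3 lay on 61.9% of H3K4me3 peaks with H3K9ac (61.2 to 62.6%) and on 26.2% of those without (25.6 to 26.9%). It lay on 15.6% of H3K9ac peaks without H3K4me3 (14.7 to 16.5%). The widths of these groups differ, as given above. Within the widest class of H3K4me3 peaks the shares were 79.1% with and 47.2% without H3K9ac, and within the narrowest class 38.5% and 15.2%.

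H3K27me3 was more frequent on H3K4me3 peaks without H3K9ac, but not at every width. It lay on 6.46% of them (6.12 to 6.81%) and on 2.92% of those with H3K9ac (2.69 to 3.16%). In the widest class the shares were 7.07% without and 2.41% with H3K9ac. In the narrowest class they turned round, with 6.70% without (6.07 to 7.39%) and 9.91% with H3K9ac (8.78 to 11.2%). H3K9ac peaks of all widths carried H3K27me3 in 2.75% of cases with and 2.73% without H3K4me3, a difference within the counting intervals. This did not hold within width classes. In the narrowest class of H3K9ac peaks the shares were 8.61% with (7.63 to 9.69%) and 3.77% without H3K4me3 (3.07 to 4.61%). In the widest class they were 2.06% with (1.70 to 2.50%) and 3.81% without (2.24 to 6.41%), with overlapping intervals. DNA methylation lay on 0.707% of H3K4me3 peaks with and 0.960% without H3K9ac, and on 0.625% of H3K9ac peaks with and 1.01% without H3K4me3.

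Most root H3K4me3 peaks without H3K9ac lay where shoot had H3K9ac. An H3K9ac peak of shoot lay on 71.4% of them (70.8 to 72.0%), against 96.2% of root H3K4me3 peaks with H3K9ac. Both shoot marks lay on 66.8% of the H3K4me3 peaks without H3K9ac, H3K4me3 alone on 16.8%, H3K9ac alone on 4.55% and neither on 11.8%. Root H3K9ac peaks without H3K4me3 were less often shared with shoot. Of these, 48.9% lay on both shoot marks, 25.3% on shoot H3K9ac alone, 3.34% on shoot H3K4me3 alone and 22.5% on neither. Neither shoot mark was found on 1.53% of root H3K4me3 peaks with H3K9ac.

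Among gene models, H3K4me3 without H3K9ac was common and H3K9ac without H3K4me3 was rare. Both marks were listed for 19604 gene models (10.5%), H3K4me3 only for 17401 (9.32%), H3K9ac only for 2996 (1.60%) and neither for 146789 (78.6%). H3K4me3 genes thus also had H3K9ac in 53.0% of cases (52.5 to 53.5%), and H3K9ac genes had H3K4me3 in 86.7% (86.3 to 87.2%). In shoot the shares were 85.4% and 88.2%. Of the marked root models, 33.0% repeated all mark values of an earlier model. Such repeats made up 29.3% of models with both marks, 37.3% with H3K4me3 only and 32.5% with H3K9ac only. The shares above therefore depend on how repeats are counted. With each such set counted once, 13860 models had both marks, 10918 had H3K4me3 only and 2023 had H3K9ac only.

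Genes with 1 mark had less of that mark. The median marked length of H3K4me3 was 1036 bp in genes with both marks and 921 bp in genes with H3K4me3 only, with 51 and 34 read equivalents. For H3K9ac the lengths were 596 bp with both and 407 bp with H3K9ac only, with 32.5 and 17.9 read equivalents. The lowest listed amounts were 5 read equivalents for H3K4me3 and 4 for H3K9ac. A gene listed without a mark is not shown to lack it.

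The marked lengths of the gene table are not the widths of the listed peaks for H3K4me3. Over marked root genes the H3K4me3 length had a median of 989 bp, 1.65 times the median peak width of 599 bp. The lowest percentile, at 352 bp, was 1.98 times that of the peaks (178 bp). For H3K9ac the gene length and the peak width had almost equal medians, 568 and 564 bp. In shoot the corresponding factors of the medians were 1.31 for H3K4me3 and 1.01 for H3K9ac. No source used here says how the table's regions were defined. The median log2 length ratio of H3K9ac over H3K4me3 was -0.75 in the gene table, against -0.13 for one-to-one peak pairs, and it carries this difference in the H3K4me3 lengths. H3K9ac was the longer mark in 7.84% of genes with both.

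The share of genes with both marks rose with mRNA, while the share with H3K4me3 only was higher above 0 than at 0 and nearly level among the classes above 0. Genes were divided by the mRNA value, the mRNA depth divided by the mRNA length of the table, into those listed at 0 and 5 equal classes above 0. The limits of these classes were 2.53, 3.45, 4.97, 7.81 and 15.67. Both marks were found on 3.79% of genes listed at 0 (3.69 to 3.89%), on 22.2% of the lowest class above 0 (21.3 to 23.0%), and on 27.3%, 31.7%, 36.4% and 43.1% of the following ones. H3K4me3 only was found on 6.52% of genes listed at 0, on 19.3% of the lowest class (18.5 to 20.1%) and on 18.0% to 18.2% of the other 4 classes. H3K9ac only was on 0.937% of genes listed at 0 and on 3.62% to 3.92% of the classes above 0. Given H3K4me3, the share with H3K9ac went from 36.8% at 0 through 53.5% in the lowest class to 70.5% in the highest (69.2 to 71.7%). Given H3K9ac, the share with H3K4me3 went from 80.2% to 91.7%.

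**Figure D3:**
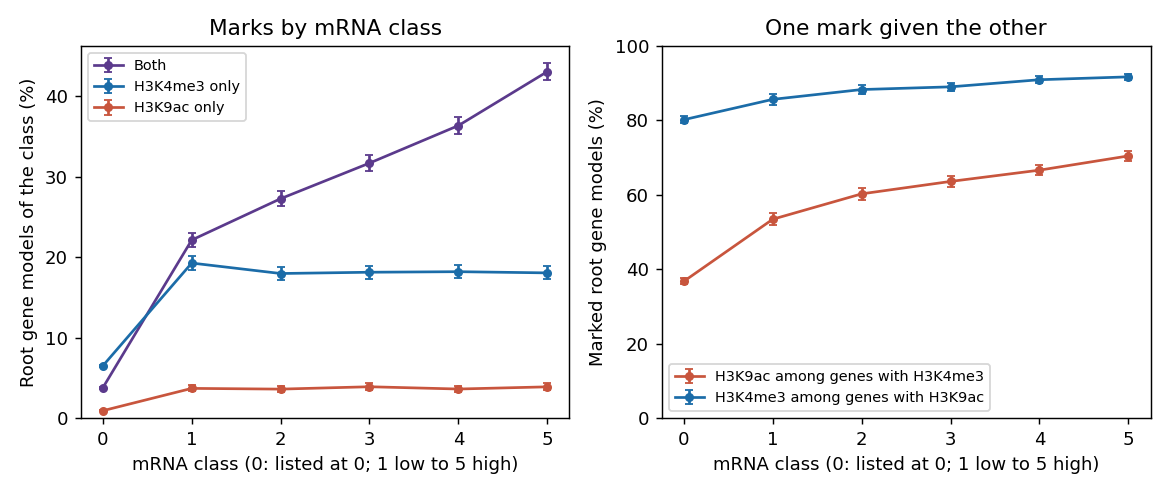
Left, percentage of root gene models with both marks, H3K4me3 only or H3K9ac only in the genes listed at 0 (class 0) and the 5 equal classes of mRNA value above 0. Right, percentage of genes with H3K4me3 that also have H3K9ac, from 36.8% to 70.5%, and the reverse, from 80.2% to 91.7%. Bars are 95% Wilson intervals.

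Among genes of similar H3K4me3 coverage, the step from genes listed at 0 to genes above 0 was also present. A further rise toward the highest mRNA class was clear only at higher coverage. In the lowest of 5 equal classes of H3K4me3 genes by read equivalents (5 to 22.9), 24.9% of those listed at 0 for mRNA had H3K9ac (23.7 to 26.2%), compared with 41.3% of those above 0 (39.5 to 43.1%). In the highest class (74 or more), the shares were 50.6% (48.0 to 53.1%) and 75.8% (74.7 to 76.9%), and 80.8% in the highest mRNA class. The coverage of H3K4me3 itself went with H3K9ac, from 31.2% over all genes of the lowest to 70.8% of the highest class. By H3K4me3 length the course was flatter, with 37.6% in the shortest class and between 51.5% and 59.0% in the other 4.

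**Figure D4:**
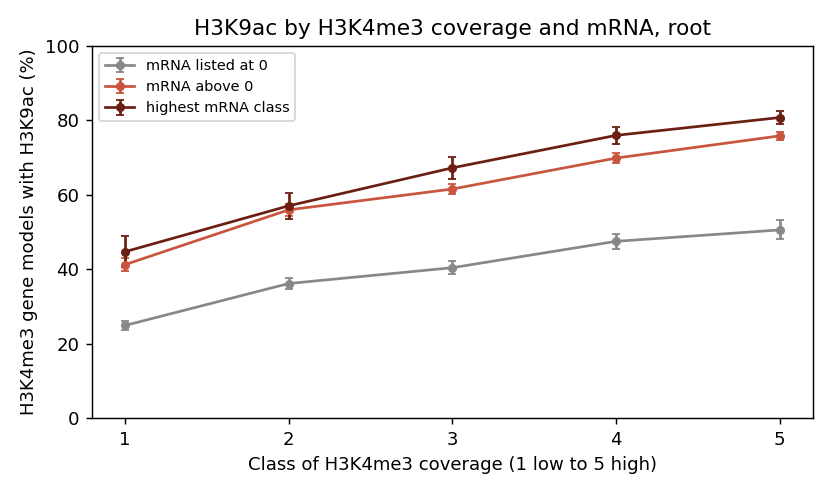
Percentage of root H3K4me3 gene models that also carry H3K9ac, in 5 equal classes of H3K4me3 read equivalents, for genes listed at 0 for mRNA, genes above 0 and the highest mRNA class. Bars are 95% Wilson intervals, and the genes listed at 0 lie below the others in each class.

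Genes with both marks had mRNA above 0 in 72.4% of cases, genes with H3K9ac only in 55.4% (53.6 to 57.2%), genes with H3K4me3 only in 46.6% (45.8 to 47.3%) and genes with neither in 13.8%. Where it was above 0, the median mRNA value was 7.69 with both marks (quartiles 4.39 and 16.8), 6.38 with H3K9ac only, 6.03 with H3K4me3 only and 5.34 with neither. The quartile ranges overlapped widely. H3K36me3 was on 71.8% of genes with both marks, 34.2% of those with H3K4me3 only and 29.9% of those with H3K9ac only. Among genes listed at 0 for mRNA it was on 60.8% of genes with both marks (59.5 to 62.1%), against 23.5% with H3K4me3 only and 19.2% with H3K9ac only. H3K27me3 was highest in genes with H3K4me3 only, at 5.67% (5.34 to 6.03%), compared with 1.86% with both and 1.70% with H3K9ac only. DNA methylation was lowest there, at 1.38% (1.22 to 1.57%), compared with 2.24% with both and 2.90% with H3K9ac only. In genes with neither mark, H3K36me3 was on 3.54%, H3K27me3 on 0.653% and DNA methylation on 4.16%.

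Genes with both marks in shoot were without H3K9ac in root more often than without H3K4me3. Of these 40898 genes, 46.4% had both marks in root, 33.2% had H3K4me3 only, 5.21% had H3K9ac only and 15.1% had neither. The shoot H3K9ac behind these classes differed, with medians of 134, 72.5, 75.8 and 48.0 read equivalents in that order. The genes with H3K4me3 only in root were above 0 for mRNA in 48.6% of cases in root (47.7 to 49.4%) and 50.8% in shoot (49.9 to 51.6%). For genes with both marks in root the values were 72.5% and 70.4%. In genes above 0 in both organs, the median log2 ratio of root over shoot mRNA value was 0.19 with both marks in root (0.18 to 0.21), 0.09 with H3K4me3 only (0.07 to 0.11), 0.05 with H3K9ac only (0.02 to 0.09) and -0.04 with neither (-0.08 to -0.01). The mRNA values were used as deposited, without correction here for the sizes of the mRNA libraries. Only the order of these ratios between the gene classes can therefore be read, not their sign. The shares above 0 in root and shoot carry the same limit.

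In genes with both marks, the depth of H3K9ac relative to H3K4me3 differed little between mRNA classes. Both marks rose separately: from genes listed at 0 to the highest class, the median H3K4me3 depth went from 38 to 65 read equivalents and that of H3K9ac from 24 to 41.2. The median log2 ratio of H3K9ac over H3K4me3 depth, on the authors' scale, was -0.85 in genes listed at 0 (-0.88 to -0.82). It was -0.79, -0.83, -0.82, -0.78 and -0.83 over the 5 classes above 0. The difference between the highest and the lowest class was -0.0389, with an interval of -0.10 to 0.02 that includes 0. Across the 14196 genes above 0, rho between the ratio and the mRNA value was -0.00619. Since no source used here gives the basis of the scaling, the level of the ratio has no absolute meaning and only its change between genes can be read. The ratio of a single gene had a median counting error of 0.33 on the log2 scale, against an SD of 0.87 between genes.

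The depth ratio is the product of a length ratio and a ratio per marked base, and these had small changes in opposite directions. The length ratio rose, from -0.84 in genes listed at 0 to -0.75 in the lowest and -0.69 in the highest class, a difference of 0.06 between the last pair (0.02 to 0.11). The ratio of depth per marked base fell, from 0.02 through -0.00399 to -0.10, a difference of -0.09 (-0.13 to -0.06). H3K4me3 depth per marked base went from 1.21 to 1.63 and H3K9ac depth per marked base from 1.20 to 1.51 between genes listed at 0 and the highest class. These changes were a fraction of the spread within a class, whose quartiles for the length ratio in the highest class were -1.16 and -0.32.

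**Figure D5:**
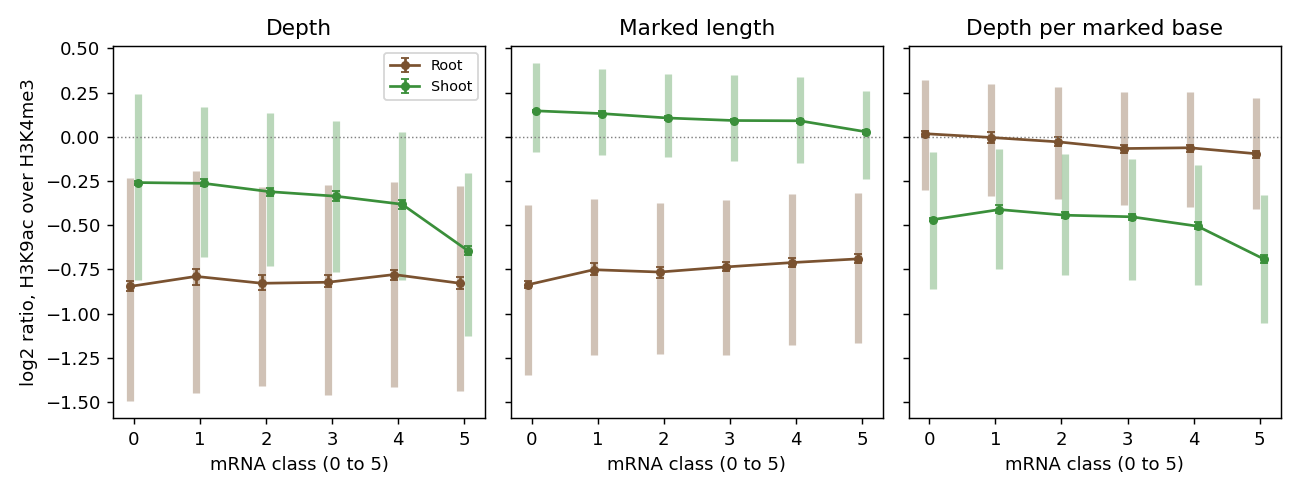
Median log2 ratio of H3K9ac over H3K4me3 in genes with both marks for depth, marked length and depth per marked base, by mRNA class from 0 (listed at 0) to 5 (highest), in root and shoot. Thin bars are 95% order-statistic intervals of the median and wide pale bars the quartiles. The root depth ratio stays between -0.85 and -0.78.

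In shoot the depth ratio fell with mRNA, from -0.26 in the lowest to -0.64 in the highest class, with a rho of -0.201 over 24310 genes. The shoot length ratio fell as well (rho -0.102), in the direction opposite to root. The difference between organs was not tested. In the 18995 genes with both marks in both organs, rho between the root and shoot depth ratios was 0.435, and 0.146 for the length ratios.

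In root the depth ratio was lower the longer H3K4me3 was. Over 5 equal classes of genes by H3K4me3 length, from at most 757 bp to at least 1427 bp, the median log2 depth ratio went from -0.32 to -0.63, -0.83, -1.01 and -1.35. The length of H3K4me3 is part of its depth, so a relation of this direction is built into the ratio. Within the longest class the ratio went from -1.46 in the lowest to -1.10 in the highest mRNA class (rho 0.119 over 3306 genes). The highest mRNA class was also above the lowest in length classes 2, 3 and 4, by 0.068, 0.054 and 0.104 on the log2 scale. In the shortest class the medians were -0.22 and -0.25. The rho with mRNA above 0 was positive in all 5 length classes, between 0.00394 and 0.119. Genes with H3K36me3 had a median depth ratio of -0.83 and those without it -0.80, with overlapping intervals. Its parts differed in opposite directions. The length ratio was -0.73 with H3K36me3 (-0.74 to -0.71) and -0.83 without it (-0.85 to -0.81). The ratio per marked base was -0.08 with H3K36me3 (-0.09 to -0.07) and 0.07 without it (0.06 to 0.09). The 364 genes with H3K27me3 had a lower depth ratio, at -1.23 (-1.40 to -1.02), with a length ratio of -1.09.

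Single genes show the range of the ratio. Identifiers are those of the table, and none was paired with a name or a role here. Among 2083 genes with both marks and with both marked lengths and the mRNA coverage at or above the median, the highest ratio was that of Zm0134619. It had 93 read equivalents of H3K4me3 over 1374 bp and 266 of H3K9ac over 1810 bp, a depth ratio of 2.46, with 651 mRNA reads and H3K27me3 over 341 bp. Zm0134620, the next identifier in the table, had a ratio of 2.35, with H3K4me3 over 1313 bp and H3K9ac over 1275 bp. The lowest ratios were those of Zm0185620 and Zm0023026. Zm0185620 had H3K4me3 over 3149 bp (229 read equivalents) and H3K9ac over 753 bp (36.2), a ratio of 0.136. Zm0023026 had 2365 bp (226) and 685 bp (36.1), a ratio of 0.137. In shoot the H3K9ac lengths of these last genes were 3583 and 2337 bp. Both high-ratio genes lacked listed H3K36me3 in root, and both low-ratio genes had it, over 770 and 1790 bp. These genes were picked as extremes and do not stand for the rest. Over all genes with both marks, the median log2 depth ratio was -0.83 with H3K36me3 and -0.80 without it, with overlapping intervals. The length ratio and the ratio per marked base differed in opposite directions, as given above.

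The other identifiers are the genes of highest mRNA value with a single mark. Zm0181413, with H3K4me3 only, had an mRNA value of 4598 and 263653 reads, but only 18 read equivalents of H3K4me3 over 652 bp, and DNA methylation was listed over 786 bp. Zm0183515, with H3K9ac only, had an mRNA value of 1449 and 120 read equivalents of H3K9ac over 1497 bp. In shoot both genes had both marks listed, with H3K9ac over 1147 and 1720 bp.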

How the data were processed

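The members, gene classes and settings were chosen with earlier results of these data known. Peak lists hold only positions on clones, and the scripts used them as deposited; starts below 0 (21 H3K4me3 and 20 H3K9ac peaks in root) were kept. In the gene tables, the mark depth and mRNA columns are signal (summed base coverage, and for the mRNA value that coverage divided by the mRNA length) as deposited by the authors, per the file headers and the values. Mark depths were whole multiples of 1 step for each library within a tolerance of 0.05. No source used here names the aligner, the peak caller or the build. Total reads of the chromatin libraries are unknown here, and the read equivalents cover gene models only.

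One-to-one pairs are peaks that overlap each other and no other peak of the lists. Shares have 95% Wilson intervals, and medians have order-statistic intervals. Both count every gene model separately, also those that repeat the mark values of an earlier one. Intervals over gene models are therefore too narrow. Spearman's rho is across peaks or genes, which are not independent replicates, and has no p. Genes to be named were, by rule, the 2 of highest and the 2 of lowest depth ratio among genes with both marks, mRNA above 0, and both marked lengths and the mRNA depth at or above their medians, and the gene of highest mRNA value with each single mark. For the depth ratio, a model that repeats all mark values of an earlier one was passed over. Analyses used Python 3.11.15, numpy 2.4.6, pandas 2.3.3, scipy 1.17.1 and matplotlib 3.10.9, and were tested on simulated data. Alternatives covered the overlap rule, merging, peak length, redundancy, scaling and the number of classes. No sequence is shown, since no genome was used here.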

Additional observations from a re-analysis of the deposited data

Results flagged for a closer look

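The width relation of the marks had opposite directions in the organs. The median log2 width ratio of H3K9ac over H3K4me3 in one-to-one pairs was -0.13 in root and 0.40 in shoot. In the gene tables the median log2 length ratio in genes with both marks was -0.75 in root and 0.11 in shoot. There the median H3K4me3 length was 1.65 times the median peak width in root and 1.31 times in shoot. For H3K9ac the factor was 1.01 in each organ, so the length ratios carry this unequal excess of H3K4me3. Each value rests on 1 library for each mark and organ, and the difference between organs was not tested. H3K9ac coverage, at 853208 read equivalents in root and 5064621 in shoot, moved with the width relation. This coverage is summed over marked lengths, so a part of that link is built in. The part of coverage in the result was not tested.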

How the results depend on the processing

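No paired analysis was possible because each mark and organ has 1 library. Among 31 alternative values, 16 moved by more than counting error (for counts of genes, by over 1.5 times), 3 turned sign and the other 12 did neither. For the share of H3K4me3 peaks on H3K9ac (51.3%) and of H3K9ac peaks on H3K4me3 (77.5%), requiring cover of at least 50% of the peak itself gave 43.4% and 71.6%, cover of 50% of the shorter peak 48.7% and 74.3%, a gap of up to 200 bp 52.8% and 79.1%, and keeping in both lists only peaks at or above that list's median length, which also removes partners, 46.0% and 69.6%. The same restriction gave a log2 width ratio of -0.11. When an edge could stick out by 50 bp, H3K9ac was inside in 48.1% and H3K4me3 inside in 34.0% of pairs, the latter chosen after seeing the data, as was the use of coverage before the authors' scaling, which gave a median log2 depth ratio of -0.60 in place of -0.82. The same ratio per marked base was -0.0413. With each set of equal values once, genes with H3K4me3 only numbered 10918 and genes with both marks 13860. The rho of the depth ratio with mRNA (-0.00619) was -0.0622 per marked base, -0.0286 with summed mRNA coverage (added after seeing the data), 0.0554 with genes of either mark and a pseudocount, and 0.00380 with genes listed at 0. The class difference (-0.0389) was -0.0871 with 10 classes and 0.0165 where both lengths were at or above the median. Beyond the removal of partners, the cause of these changes was not tested. The lowest listed amounts in root were 5 read equivalents of H3K4me3 and 4 of H3K9ac, and how far depth limits the listing was not tested.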
